A study of Mus musculus with 8 samples.

Results

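The enzymes of glutathione metabolism and of antioxidant defence were examined in whole pancreas from mice 3 weeks old. Expression was read on 8 Affymetrix arrays, with 2 arrays in each of 4 groups. The members were genes whose single symbol names an alpha, mu, pi, theta, omega or zeta class glutathione transferase, a glutathione peroxidase, a peroxiredoxin other than Prdx2, or a superoxide dismutase. Mgst1, Mgst2, catalase, the heme oxygenases, Nqo1, the enzymes that make and recycle glutathione, and the thioredoxins with their reductases were added by name. This gave 39 of the 8251 genes with a single symbol, each read on the brightest of its probe sets by mean over all arrays. Prdx1 was read only by probe sets shared with another symbol and was not among them.

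All mice carried the NOD background, an inbred strain that develops autoimmune diabetes. BDC2.5/NOD.scid mice carried both the BDC2.5 transgene, the rearranged receptor genes of a CD4 T cell clone specific for islets, and the scid mutation, which blocks the assembly of the animal's own antigen receptors. BDC2.5/NOD mice carried the transgene without scid, NOD.scid mice carried scid without the transgene, and NOD mice carried neither. Per the labels, each RNA pooled 2 isolations of 6 animals. It is not stated that the arrays of a group hold different pools, so p-values describe the spread between these arrays only, and that spread may be technical.

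Glutathione is a small peptide that carries a reactive thiol. Peroxidases spend it to remove hydrogen peroxide and lipid peroxides, transferases couple it to reactive compounds, and glutathione reductase restores it with NADPH. Thioredoxins and peroxiredoxins form a parallel thiol system, while superoxide dismutases and catalase work without thiols. Beta cells of rodents are known for low levels of catalase and glutathione peroxidase, whereas acinar cells, which make up most of the pancreas, are rich in glutathione.

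Values are given as deposited, on a scale taken to be log2. A gene was counted as changed where limma's moderated test gave an adjusted p under 0.05 over all 12422 probe sets. Fold changes are differences of group means on the log2 scale, with their standard error (SE). No filter on low values was used, and 29 members had a mean above the median of all probe sets (4.27) while 10 lay below it. The tissue label was checked on the 7 measured of 12 acinar markers, which averaged 12.4 to 12.6 on every array. The arrays also differed technically. The actin control read 9.26 to 9.55 on BDC2.5/NOD.scid replicate 2, NOD.scid replicate 1 and NOD replicate 1, and 6.95 to 7.74 on the others. The ratio of 3′ to 5′ control signal, a gauge of RNA integrity, was highest on NOD replicate 1. There it was 4.90 for actin (3.15 to 4.14 elsewhere) and 2.43 for Gapdh (1.66 to 1.86 elsewhere). That array is 1 of the 2 NOD arrays behind every comparison with NOD and the interaction. The BioB hybridization control read 7.02 and 7.06 on the BDC2.5/NOD arrays and 5.89 to 6.45 elsewhere, so that a difference in preparation of this pair cannot be told apart from its genotype.

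Changes among the members were few and moderate. With the transgene in NOD.scid, 1 member was higher (Gpx3) and 3 were lower (Gpx4, Gstt2 and Gstp1), or 4 of 39 (10.3%), where 6.97% of all genes were called (2.46% higher and 4.51% lower). With the transgene in NOD, 2 were higher (Mgst2 and Txn2) and 3 lower (Mgst1, Gstm1 and Gstt1), or 5 of 39 (12.8%), against 8.71% of all genes (4.16% higher and 4.56% lower). In NOD.scid against NOD, 1 was higher (Gpx4) and 1 lower (Txn1), or 5.13% of the members, against 2.73% of all genes (0.824% higher and 1.9% lower). The comparison of BDC2.5/NOD.scid against BDC2.5/NOD had 3 higher members (Gpx3, Mgst1 and Gstm1) and 2 lower (Mgst2 and Txn2), or 12.8% of the members, against 9.25% of all genes (3.16% higher and 6.08% lower). The interaction, which is the transgene effect in NOD.scid minus that in NOD, was called for Mgst1 and Gstm1 (positive) and Mgst2 (negative), or 7.69% of the members, against 5.38% of all genes (2.48% positive and 2.9% negative). With 39 members, each share lay within 2 genes of that over all genes, so none is read as particular to them.

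In all, 10 members passed in at least 1 comparison, which is 25.6% of them, against 18.2% of all genes. The other 29 passed in none. The comparisons share arrays, so the same group can carry several of the 19 calls. The median log2 fold change of the members was -0.07 with the transgene in NOD.scid (-0.0075 over all genes) and -0.06 with the transgene in NOD (0.04 over all genes). It was 0.0055 in NOD.scid against NOD and -0.0025 in BDC2.5/NOD.scid against BDC2.5/NOD (0.03 and -0.02 over all genes). No member differed by more than 1 on the log2 scale in any comparison, and 0.303% to 1.31% of all genes did. Shares this small would mostly give none among 39 genes, so this is not read as particular to the members. Without regard to sign, the median log2 fold change was 0.1095 to 0.2635 for the members and 0.1035 to 0.155 for all genes, over the 5 comparisons. The range over the 4 group means had a median of 0.289 for the members and 0.244 for all genes. It ran from 0.05 for Cat to 0.82 for Mgst1.

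**Figure D1:**
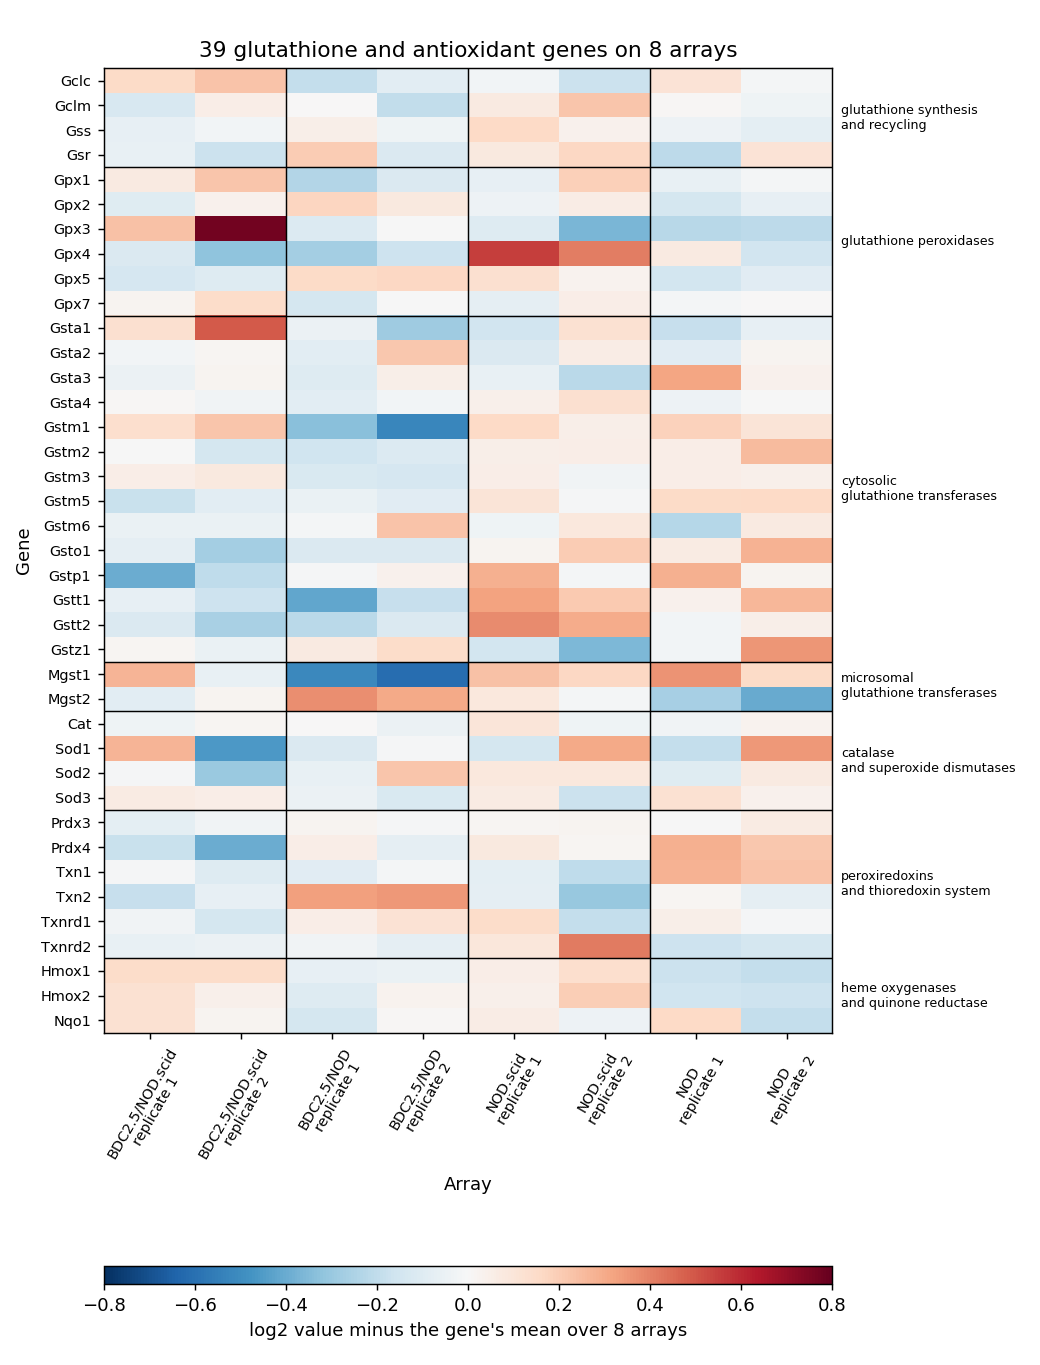
Log2 values of the 39 members (rows) on the 8 arrays (columns, by group), each shown as the difference from the gene's mean over the 8 arrays. The strongest blocks are the low BDC2.5/NOD values of Mgst1 and Gstm1, the high NOD.scid values of Gpx4 and the high BDC2.5/NOD.scid values of Gpx3, whereas Cat varied little.

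Of the 4 members that make or recycle glutathione, none passed in any of the 5 comparisons, and 3 of their 20 results had an unadjusted p under 0.05. Over all genes that share was 15.6% to 25.1%, depending on the comparison. All 3 results came from Gclc, the catalytic subunit of the rate-limiting glutamate-cysteine ligase. Gclc read 4.97 and 5.04 (BDC2.5/NOD.scid), 4.63 and 4.73 (BDC2.5/NOD), 4.79 and 4.64 (NOD.scid), and 4.93 and 4.80 (NOD). Both BDC2.5/NOD.scid arrays lay above the other 6. The log2 fold change was 0.33 in BDC2.5/NOD.scid against BDC2.5/NOD (95% interval 0.107 to 0.549, limma adjusted p = 0.0718) and 0.29 against NOD.scid (limma adjusted p = 0.139), and the interaction was 0.48 (limma adjusted p = 0.0921). The first of these passed with dim probe sets left out (limma adjusted p = 0.0459), with array weights (0.0476) and with the mean over probe sets (0.04995). Gclc has 1 probe set and the difference stayed at 0.33 in each, so only the estimate of spread and the adjustment changed. Gsr, the reductase that regenerates glutathione, read 5.46 and 5.34 (BDC2.5/NOD.scid), 5.72 and 5.40 (BDC2.5/NOD), 5.59 and 5.68 (NOD.scid), and 5.31 and 5.62 (NOD). Its groups overlapped, apart from BDC2.5/NOD.scid, which lay below NOD.scid by 0.24 without passing. Gclm, the regulatory subunit of the ligase, and Gss, glutathione synthetase, did not pass either.

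Among the 6 glutathione peroxidases, Gpx3 and Gpx4 changed, and in opposite directions with the transgene in NOD.scid. Gpx3 is the secreted peroxidase of plasma and extracellular fluid. It read 6.59 and 7.13 in BDC2.5/NOD.scid, 6.25 and 6.35 in BDC2.5/NOD, 6.25 and 5.99 in NOD.scid, and 6.13 and 6.14 in NOD. Both BDC2.5/NOD.scid arrays lay above the other 6, and replicate 2 was the higher. Gpx3 rose by 0.74 (SE 0.149, 1.67-fold, limma adjusted p = 0.00955) in BDC2.5/NOD.scid against NOD.scid and by 0.56 (1.47-fold, limma adjusted p = 0.0381) against BDC2.5/NOD. In BDC2.5/NOD against NOD the difference was 0.16 and did not pass, and the interaction of 0.58 did not pass either (limma adjusted p = 0.171). In bulk tissue, a larger number of cells of one type and more RNA per cell cannot be told apart, here and in what follows.

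Macrophage markers were high on the same arrays as Gpx3. The 13 markers, all measured, averaged 5.73 to 5.83 in BDC2.5/NOD.scid, 4.95 to 4.98 in BDC2.5/NOD, 5.003 to 5.10 in NOD.scid and 4.89 to 4.99 in NOD. Of these, 8 rose in BDC2.5/NOD.scid against NOD.scid and 8 against BDC2.5/NOD, and their part in the Gpx3 result was not tested. The Gpx3 difference from NOD.scid was 0.60 among the arrays of low actin control and 0.88 among those of high. Each level held 1 array of each group, here and in the splits given below for Gpx4, Gstp1, Gstt2 and Txn1. Each such value is thus 1 array minus 1 array, and the 2 average to the pooled difference. As the compared groups did not overlap, their shared sign was fixed, so the split is no separate check. Its call was lost when leaving out BDC2.5/NOD.scid replicate 2 (0.47, limma adjusted p = 0.074) and without NOD.scid replicate 2 (0.61, limma adjusted p = 0.0772), and with only the arrays compared (0.054). Against BDC2.5/NOD, the difference was 0.29 without BDC2.5/NOD.scid replicate 2 (limma adjusted p = 0.265), which is also its value among low-actin arrays. That call was also lost without either BDC2.5/NOD array (limma adjusted p = 0.255 and 0.161) and without either NOD array (limma adjusted p = 0.0523 and 0.0524), and with the number in the array titles as a replicate block (0.059). The interaction passed without BDC2.5/NOD.scid replicate 1 (0.85, limma adjusted p = 0.0154).

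Gpx4, which reduces lipid hydroperoxides inside membranes and protects cells from ferroptosis, was set apart by NOD.scid. It read 5.002 and 4.80 in BDC2.5/NOD.scid, 4.85 and 4.95 in BDC2.5/NOD, 5.67 and 5.53 in NOD.scid, and 5.19 and 4.97 in NOD. Both NOD.scid arrays lay above the other 6, whose groups were close together. Gpx4 was lower in BDC2.5/NOD.scid relative to NOD.scid, with a log2 fold change of -0.70 (SE 0.113, 0.616-fold, limma adjusted p = 0.0022). It was higher in NOD.scid relative to NOD, by 0.52 (SE 0.113, 1.43-fold, limma adjusted p = 0.034). Both differences rest on the NOD.scid pair. Between BDC2.5/NOD and NOD it differed by -0.18 without passing (limma adjusted p = 0.377).

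Red cell and neutrophil markers were also high in NOD.scid. The 8 measured of 11 red cell markers averaged 5.34 to 5.36 in BDC2.5/NOD.scid, 5.06 to 5.14 in BDC2.5/NOD, 6.16 to 6.28 in NOD.scid and 5.21 to 5.27 in NOD. The 8 neutrophil markers averaged 4.51 to 4.76 in BDC2.5/NOD.scid, 4.37 to 4.47 in BDC2.5/NOD, 5.54 to 5.64 in NOD.scid and 4.59 to 4.72 in NOD. Of each list, 6 rose in NOD.scid against NOD. The 6 measured of 9 duct markers averaged 6.03 to 6.05 in BDC2.5/NOD.scid, 6.06 to 6.23 in BDC2.5/NOD, 6.55 to 6.62 in NOD.scid and 6.07 to 6.09 in NOD. Of these 1, Car2, was higher in NOD.scid against NOD (2.63), while the median of the 6 was 0.09. The raised duct average thus rests largely on Car2. The part of all these markers in the Gpx4 result, and in that of Gstt2 given further on, was not tested. The log2 fold change of Gpx4 in BDC2.5/NOD.scid against NOD.scid was -0.53 among low-actin and -0.87 among high-actin arrays, and it passed with each array left out. The NOD.scid against NOD call was lost without any one of NOD.scid replicate 1 or 2 (limma adjusted p = 0.112 and 0.0948), NOD replicate 1 or 2 (0.052 and 0.226) and BDC2.5/NOD replicate 1 or 2 (0.0741 and 0.0742), and with only the arrays compared (0.0886).

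Gpx1, the general cytosolic peroxidase, read 6.19 and 6.34 (BDC2.5/NOD.scid), 5.89 and 6.01 (BDC2.5/NOD), 6.05 and 6.31 (NOD.scid), and 6.06 and 6.10 (NOD). The BDC2.5/NOD arrays were the lowest, and BDC2.5/NOD.scid exceeded them by 0.32 without passing (limma adjusted p = 0.0946). Gpx2, known from gut epithelium, Gpx5, an epididymal form that lacks selenocysteine, and Gpx7, of the endoplasmic reticulum, passed in no comparison. The nearest to the threshold was the Gpx5 interaction, at -0.48 (limma adjusted p = 0.0721). A dimmer Gpx5 probe set gave 0.13 there (limma adjusted p = 0.786), and the probe set used averaged 4.06, below the median of all probe sets.

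Of the 14 cytosolic glutathione transferases, which join glutathione to electrophiles, Gstm1, Gstp1, Gstt1 and Gstt2 passed in at least 1 comparison. Gstm1, of the mu class, was low in BDC2.5/NOD. It read 9.11 and 9.20 in BDC2.5/NOD.scid, 8.64 and 8.46 in BDC2.5/NOD, 9.14 and 9.03 in NOD.scid, and 9.16 and 9.08 in NOD. Both BDC2.5/NOD arrays lay below the other 6, which spanned a narrow range. Gstm1 was lower in BDC2.5/NOD relative to NOD, with a log2 fold change of -0.57 (SE 0.0906, 0.672-fold, limma adjusted p = 0.00219), and did not pass in BDC2.5/NOD.scid against NOD.scid (0.07, limma adjusted p = 0.781). The difference between these transgene effects was 0.64 (SE 0.128, limma adjusted p = 0.0131). In BDC2.5/NOD.scid against BDC2.5/NOD it was higher by 0.61 (1.52-fold, limma adjusted p = 0.00128).

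The Gstm1 reading came from a probe set whose name marks probes that can match several related genes. A dimmer Gstm1 probe set averaged 5.91 in BDC2.5/NOD.scid, 5.71 in BDC2.5/NOD, 5.80 in NOD.scid and 5.76 in NOD. On it the difference of BDC2.5/NOD from NOD was -0.05 (limma adjusted p = 0.821), that of BDC2.5/NOD.scid from BDC2.5/NOD was 0.20 (limma adjusted p = 0.325) and the interaction was 0.17, so that none passed. All 3 Gstm1 calls are therefore tied to 1 of 2 probe sets. With the mean of both, the first difference was -0.31 (limma adjusted p = 0.0612), the second 0.40 (limma adjusted p = 0.0197) and the interaction 0.41 (limma adjusted p = 0.114). Without BDC2.5/NOD replicate 2 the decrease was -0.48 (limma adjusted p = 0.052) and the interaction's limma adjusted p was 0.0998, and without NOD replicate 1 the interaction's p was 0.0608. The other mu class genes on the array, Gstm2, Gstm3, Gstm5 and Gstm6, passed in no comparison. Gstm2 came closest, at -0.29 in BDC2.5/NOD against NOD (limma adjusted p = 0.0861). A second Gstm2 probe set of similar brightness (mean 6.95, against 7.03) gave -0.09 there (limma adjusted p = 0.613).

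**Figure D2:**
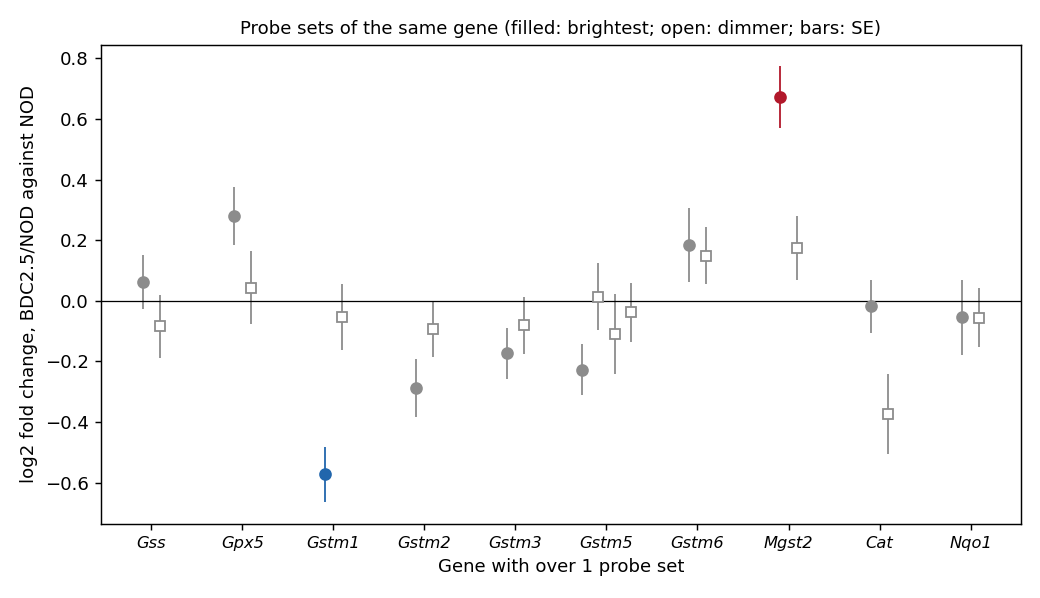
Log2 fold change of BDC2.5/NOD against NOD (vertical axis) for each probe set of the 10 members that had more than 1, with bars for the SE. The filled point is the brightest probe set, which represents the gene, and for Gstm1 and Mgst2 the open point of the dimmer probe set lies closer to 0.

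Gstp1, the pi class transferase, was low in BDC2.5/NOD.scid. It read 8.96 and 9.15 in BDC2.5/NOD.scid, 9.35 and 9.39 in BDC2.5/NOD, 9.64 and 9.34 in NOD.scid, and 9.64 and 9.38 in NOD. Both BDC2.5/NOD.scid arrays lay below the other 6, and the NOD.scid and NOD pairs were each spread by their replicate 1, an array of high actin control. The log2 fold change of BDC2.5/NOD.scid against NOD.scid was -0.44 (SE 0.117, 0.739-fold, limma adjusted p = 0.0458), and it was -0.38 within low-actin and -0.49 within high-actin arrays. That adjusted p was 0.221 with BDC2.5/NOD.scid replicate 1 left out, 0.0609 with its replicate 2 left out, 0.0934 and 0.093 without BDC2.5/NOD replicate 1 and 2, and 0.268 without NOD.scid replicate 1, where the difference was -0.29. It was also over the threshold with array medians centred (0.0598), no variance trend (0.0684), only the arrays compared (0.121), the replicate block (0.0759) and array weights (0.0594), so that the call was lost under 10 of 17 alternatives.

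The theta class genes Gstt1 and Gstt2, which also act on small halogenated compounds, differed in which groups stood apart. Gstt1 read 5.35 and 5.25 in BDC2.5/NOD.scid, 5.003 and 5.23 in BDC2.5/NOD, 5.74 and 5.63 in NOD.scid, and 5.45 and 5.68 in NOD. All 4 arrays with the transgene lay below all 4 without it. Islet markers had the same arrangement. The 10 measured of 11 averaged 4.76 to 4.93 in BDC2.5/NOD.scid, 5.03 to 5.06 in BDC2.5/NOD, 5.59 to 5.60 in NOD.scid and 5.52 to 5.56 in NOD, and 6 were lower with the transgene in each background. Their part in the Gstt1 result was not tested. Gstt1 was lower in BDC2.5/NOD relative to NOD, at -0.45 (SE 0.114, 0.733-fold, limma adjusted p = 0.0318), and the value in BDC2.5/NOD.scid against NOD.scid was -0.38 and did not pass (limma adjusted p = 0.0749). The call was lost without BDC2.5/NOD replicate 1 (-0.33, limma adjusted p = 0.303) or 2 (-0.56, limma adjusted p = 0.0631) and without NOD replicate 2 (-0.33, limma adjusted p = 0.183), and with the replicate block (0.0525).

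Gstt2 read 6.08 and 5.93 in BDC2.5/NOD.scid, 5.98 and 6.08 in BDC2.5/NOD, 6.57 and 6.49 in NOD.scid, and 6.17 and 6.24 in NOD. As with Gpx4, both NOD.scid arrays lay above the other 6. The log2 fold change was -0.53 in BDC2.5/NOD.scid against NOD.scid (SE 0.0935, 0.694-fold, limma adjusted p = 0.00425), and this call held with each array left out. It was -0.41 within low-actin and -0.64 within high-actin arrays. NOD.scid exceeded NOD by 0.33, which did not pass (limma adjusted p = 0.111). Of the transferases not called, Gsta1 of the alpha class was nearest to passing, at 0.48 in BDC2.5/NOD.scid against BDC2.5/NOD (limma adjusted p = 0.0578). Its mean of 3.21 was the lowest of all 39 members, so its readings may be background. Gsta2, Gsta3 and Gsta4 of the alpha class, Gsto1 of the omega class and Gstz1, which also acts in tyrosine breakdown, did not pass in any comparison.

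The microsomal enzymes Mgst1 and Mgst2, which are membrane proteins unrelated in fold to the cytosolic transferases, both passed with the transgene in NOD and moved in opposite directions. Mgst1, a transferase with peroxidase activity, read 4.96 and 4.63 in BDC2.5/NOD.scid, 4.18 and 4.08 in BDC2.5/NOD, 4.93 and 4.86 in NOD.scid, and 5.05 and 4.85 in NOD. Both BDC2.5/NOD arrays lay below the other 6, the same arrangement as for Gstm1. Mgst1 was lower in BDC2.5/NOD relative to NOD, at -0.82 (SE 0.122, 0.566-fold, limma adjusted p = 0.0015), and this call held with each array left out. In BDC2.5/NOD.scid against NOD.scid the difference was -0.10 and did not pass, and the interaction was 0.72 (SE 0.173, limma adjusted p = 0.0342). BDC2.5/NOD.scid exceeded BDC2.5/NOD by 0.67 (1.59-fold, limma adjusted p = 0.00514), a call lost without BDC2.5/NOD replicate 2 (0.62, limma adjusted p = 0.0783). The interaction call was lost without any one of BDC2.5/NOD.scid replicate 1 (limma adjusted p = 0.102), BDC2.5/NOD replicate 1 or 2 (0.116 and 0.164), NOD.scid replicate 1 or 2 (0.0605 and 0.0925) and NOD replicate 1 (0.129).

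Fibroblast markers were lowest on the BDC2.5/NOD arrays as well. The 8 measured of 9 markers averaged 5.94 to 6.01 in BDC2.5/NOD.scid, 5.65 on both BDC2.5/NOD arrays, 6.27 to 6.37 in NOD.scid and 6.37 to 6.48 in NOD. Of these, 7 were lower in BDC2.5/NOD relative to NOD, and 2 were higher in BDC2.5/NOD.scid relative to BDC2.5/NOD. With the transgene in NOD.scid, 5 of the 8 were lower, where Gstm1 (0.07) and Mgst1 (-0.10) did not pass. Their part in the Gstm1, Gstt1 and Mgst1 results was not tested.

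Mgst2, which also makes leukotriene C4, was lowest in NOD and highest in BDC2.5/NOD. It read 4.02 and 4.13 in BDC2.5/NOD.scid, 4.48 and 4.41 in BDC2.5/NOD, 4.19 and 4.09 in NOD.scid, and 3.84 and 3.70 in NOD. The scid groups overlapped each other and lay between the other two. Mgst2 was higher in BDC2.5/NOD relative to NOD by 0.67 (SE 0.102, 1.59-fold, limma adjusted p = 0.00168), a call held with each array left out, and the interaction was -0.74 (SE 0.145, limma adjusted p = 0.0123). BDC2.5/NOD.scid was lower than BDC2.5/NOD, at -0.37 (limma adjusted p = 0.045), but the dimmer probe set gave 0.03 there and the mean of both -0.17 (limma adjusted p = 0.263). The mean of 4.11 is below the median of all probe sets, 4.27, and a dimmer Mgst2 probe set did not pass for the transgene in NOD (0.17, limma adjusted p = 0.346) or the interaction (-0.19). The interaction call was lost without BDC2.5/NOD replicate 1 or 2 (limma adjusted p = 0.0846 and 0.0574). That of BDC2.5/NOD.scid against BDC2.5/NOD was lost when leaving out BDC2.5/NOD.scid replicate 1 or 2 (0.188 and 0.0879) and BDC2.5/NOD replicate 1 or 2 (0.272 and 0.179). It was also lost under quantile normalization (0.0743), with array medians centred (0.0698) and with the replicate block (0.0688).

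**Figure D3:**
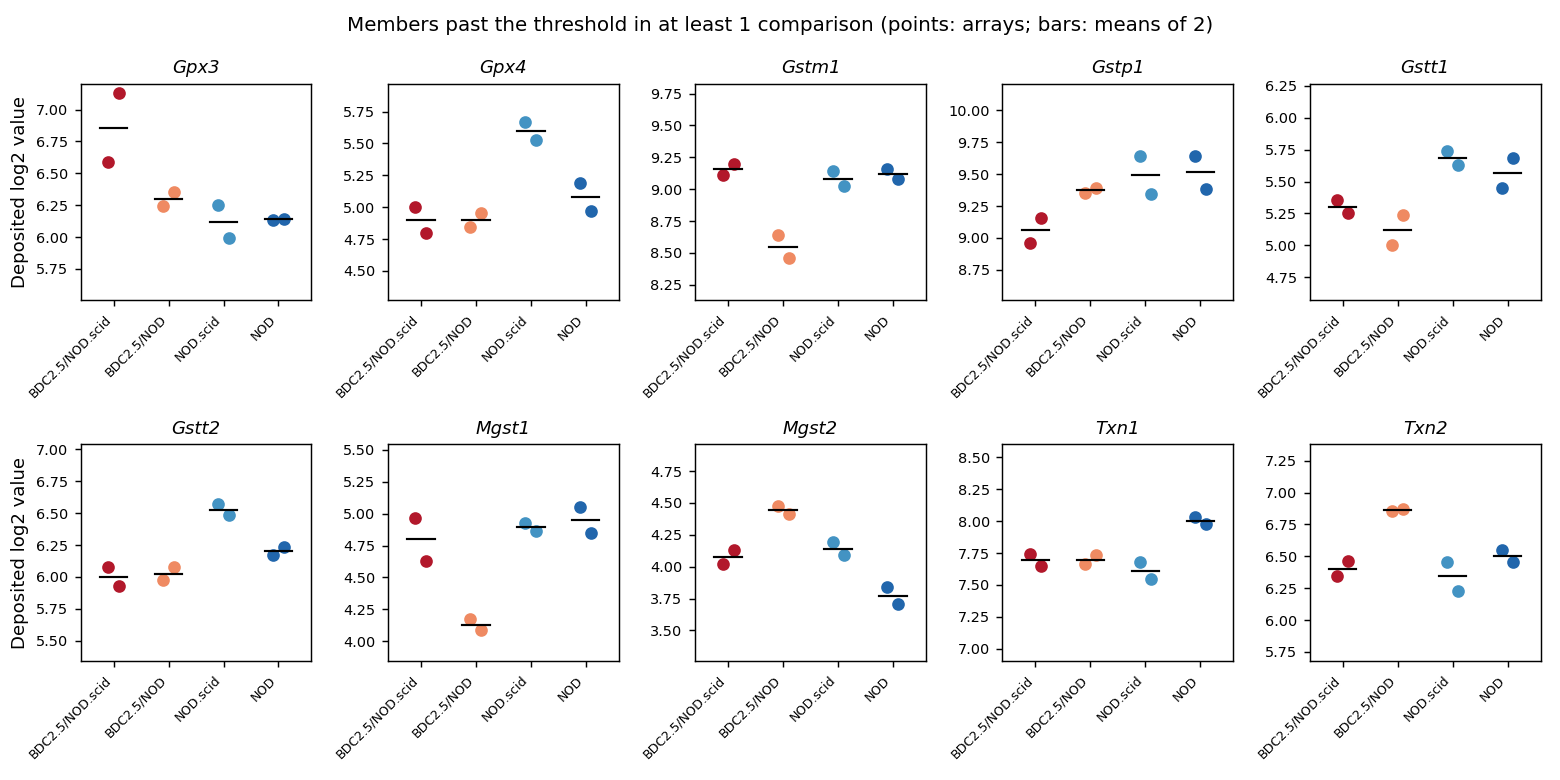
Deposited log2 values (vertical axis, one panel per gene) of the 10 members past the threshold in at least 1 comparison, with points for arrays and bars for the mean of the 2 arrays of a group. BDC2.5/NOD lies lowest for Gstm1 and Mgst1, NOD.scid lies highest for Gpx4 and Gstt2, and BDC2.5/NOD.scid lies highest for Gpx3.

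Catalase and the superoxide dismutases gave no call in limma's test as fitted without a term for the actin control. None of their 20 results had an unadjusted p under 0.05, where 15.6% to 25.1% of all genes did, depending on the comparison. Cat, which breaks down hydrogen peroxide in peroxisomes, read 6.53 and 6.58 in BDC2.5/NOD.scid, 6.57 and 6.52 in BDC2.5/NOD, 6.66 and 6.53 in NOD.scid, and 6.54 and 6.59 in NOD. The groups overlapped, and its differences ran from -0.04 to 0.03. That reading also came from a probe set that can match several related genes, and a dimmer Cat probe set was at -0.37 in BDC2.5/NOD against NOD (limma adjusted p = 0.107). Sod1, the cytosolic copper and zinc dismutase, read 7.07 and 6.33 in BDC2.5/NOD.scid, 6.68 and 6.79 in BDC2.5/NOD, 6.65 and 7.10 in NOD.scid, and 6.60 and 7.14 in NOD. It was low on the 3 arrays of high actin control, and had the widest spread within groups of all members (SD 0.36, against a median of 0.097). Its 95% interval had a half-width of 0.485 in the pairwise comparisons. It ran from -0.66 to 0.31 in BDC2.5/NOD.scid against NOD.scid and from -0.62 to 0.35 in BDC2.5/NOD against NOD. In BDC2.5/NOD against NOD its log2 fold change was -0.14, but adding a term for actin control level gave -0.42, which passed (limma adjusted p = 0.00672). Sod2, the mitochondrial manganese enzyme, read 4.63 and 4.34 in BDC2.5/NOD.scid, 4.58 and 4.87 in BDC2.5/NOD, 4.72 on both NOD.scid arrays, and 4.54 and 4.71 in NOD. NOD.scid lay above BDC2.5/NOD.scid and, narrowly, above NOD, and the other groups overlapped. Sod3, the extracellular dismutase, did not pass either.

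The thioredoxins were the members of the thiol system that changed. Txn1, the cytosolic thioredoxin, read 7.74 and 7.65 in BDC2.5/NOD.scid, 7.66 and 7.74 in BDC2.5/NOD, 7.68 and 7.55 in NOD.scid, and 8.03 and 7.98 in NOD. Both NOD arrays lay above the other 6. Txn1 was lower in NOD.scid relative to NOD, at -0.39 (SE 0.0869, 0.762-fold, limma adjusted p = 0.0364), and was -0.43 within low-actin and -0.35 within high-actin arrays. In BDC2.5/NOD against NOD it was at -0.31, just outside the threshold (limma adjusted p = 0.0513). That difference passed under 11 of the 17 alternatives, some of which only left out an array of a scid group. It did not pass without any one of the BDC2.5/NOD or NOD arrays, with the replicate block or with no variance trend. The NOD.scid call was lost without BDC2.5/NOD replicate 1 or 2 (limma adjusted p = 0.0868 and 0.0864), NOD.scid replicate 2 (-0.33, 0.252) and NOD replicate 1 or 2 (0.185 and 0.152). It was also lost with no variance trend (0.0595), only the arrays compared (0.107), the replicate block (0.0745) and array weights (0.052), making 9 of 17 alternatives.

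Txn2, the mitochondrial thioredoxin, read 6.34 and 6.46 in BDC2.5/NOD.scid, 6.86 and 6.87 in BDC2.5/NOD, 6.46 and 6.23 in NOD.scid, and 6.55 and 6.46 in NOD. Both BDC2.5/NOD arrays lay above the other 6. Txn2 was higher in BDC2.5/NOD relative to NOD, by 0.36 (SE 0.0996, 1.29-fold, limma adjusted p = 0.0441), and was lower in BDC2.5/NOD.scid relative to BDC2.5/NOD, at -0.46 (0.725-fold, limma adjusted p = 0.0125). The rise over NOD was lost without BDC2.5/NOD replicate 1 or 2 (limma adjusted p = 0.224 for each) and without NOD replicate 1 or 2 (0.114 and 0.178). It was also lost with array medians centred (0.34, limma adjusted p = 0.0729), no variance trend (0.0543) and the replicate block (0.0735). The other call was lost when leaving out BDC2.5/NOD.scid replicate 1 (0.0741) and BDC2.5/NOD replicate 1 or 2 (0.103 and 0.121). Txnrd1 and Txnrd2, the cytosolic and mitochondrial thioredoxin reductases, and Prdx3, a mitochondrial peroxiredoxin, passed in no comparison. Prdx4, a peroxiredoxin of the endoplasmic reticulum, was at -0.33 in BDC2.5/NOD.scid against NOD.scid (limma adjusted p = 0.0646).

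Heme oxygenases, which degrade heme, and the quinone reductase Nqo1 gave no call in limma's test, with an unadjusted p under 0.05 for 3 of 15 results. The share over all genes was 15.6% to 25.1%, depending on the comparison. Among the enzymes described before, the count was 19 of 70 for cytosolic transferases and 7 of 10 for microsomal ones. It was 11 of 30 for peroxidases and 11 of 30 for the thiol system. Hmox1, the inducible heme oxygenase, read 6.41 and 6.40 in BDC2.5/NOD.scid, 6.19 and 6.21 in BDC2.5/NOD, 6.31 and 6.39 in NOD.scid, and 6.09 and 6.06 in NOD. Hmox2, the constitutive form, passed in no comparison. The 4 groups of Hmox1 did not overlap, with the scid groups above the others. NOD.scid exceeded NOD by 0.28 (limma adjusted p = 0.137) and BDC2.5/NOD.scid exceeded BDC2.5/NOD by 0.21 (limma adjusted p = 0.182). Nqo1 lay below the median of all probe sets, at 3.54 and 3.44 in BDC2.5/NOD.scid, 3.28 and 3.43 in BDC2.5/NOD, 3.48 and 3.38 in NOD.scid, and 3.58 and 3.23 in NOD. Its groups overlapped apart from those of BDC2.5/NOD.scid and BDC2.5/NOD, and it passed in none. Values this low carry no detection call, so a low reading may be background.

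**Figure D4:**
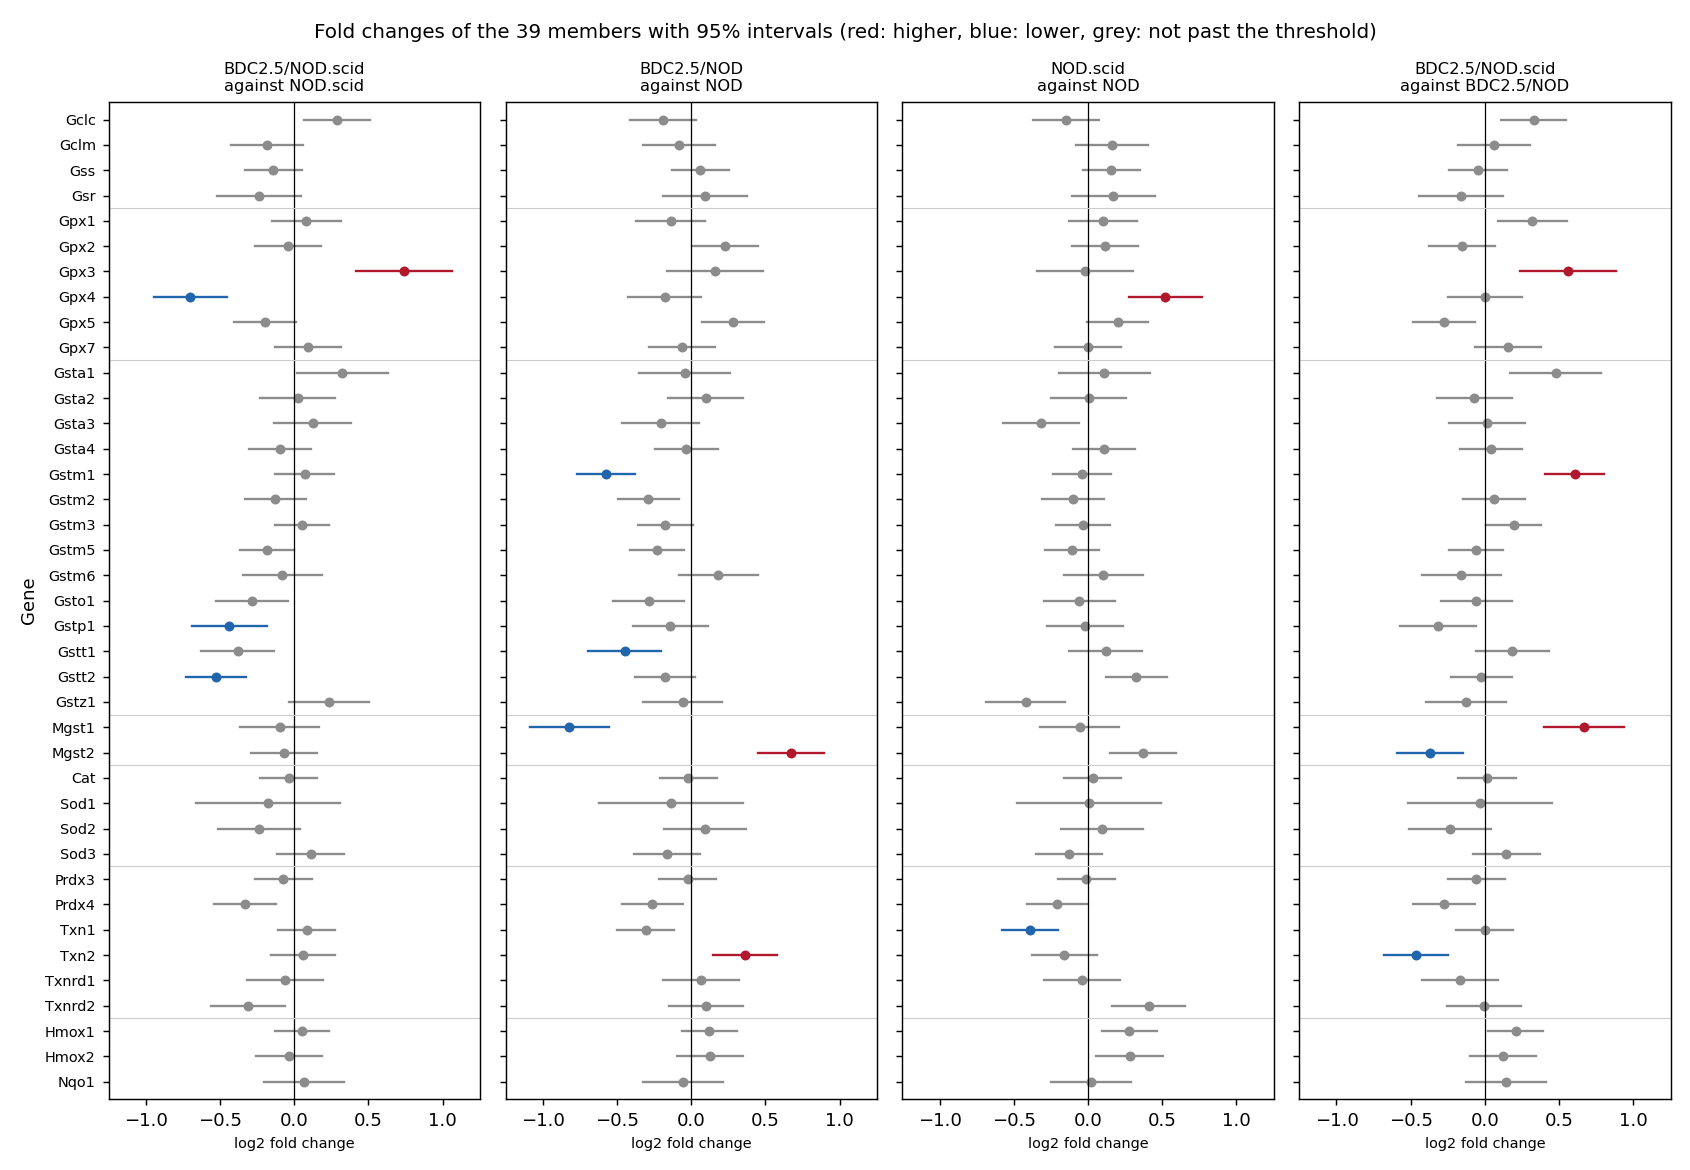
Log2 fold changes (horizontal axis) of the 39 members in the 4 pairwise comparisons, with lines for the unadjusted 95% interval, in red (higher) or blue (lower) where past the threshold and in grey elsewhere. No point lies beyond 1 in either direction, and most intervals cross 0.

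The limits on what could be seen were similar across members. The half-width of the 95% interval had a median of 0.225 on the log2 scale and ran from 0.183 to 0.485. Members that did not pass had fold changes of -0.38 to 0.33 with the transgene in NOD.scid, -0.31 to 0.28 with the transgene in NOD, -0.42 to 0.41 in NOD.scid against NOD and -0.32 to 0.48 in BDC2.5/NOD.scid against BDC2.5/NOD. Differences of that size are not shown to be absent. With the actin control as a term, other results of the named members also passed. These were Gstt1 with the transgene in NOD.scid (-0.38, limma adjusted p = 0.0262), Gstt2 and Mgst2 in NOD.scid against NOD (0.33 and 0.37, limma adjusted p = 0.0366 and 0.0306), and Gpx1 and Gstp1 in BDC2.5/NOD.scid against BDC2.5/NOD (0.34 and -0.44, limma adjusted p = 0.0429 and 0.000446). The interactions of Gpx4 (-0.55, limma adjusted p = 0.0399) and Gstp1 (-0.42, limma adjusted p = 0.0101) passed as well.

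The promoters of 3 members are printed because Gstm1 and Mgst1 shared the low BDC2.5/NOD level and Gpx3 was the member raised in BDC2.5/NOD.scid. Each is the 250 bases before the most upstream start listed by RefSeq on GRCm38.p6, read 5′ to 3′ on the gene's strand, with capitals for the core of the antioxidant response element. That core, the letters TGACNNNGC, is where NRF2 binds with small MAF proteins. Gstm1 is at chr3:108017974-108018223 on the minus strand, Mgst1 at chr6:138140277-138140526 on the plus strand and Gpx3 at chr11:54902604-54902853 on the plus strand.
Gstm1: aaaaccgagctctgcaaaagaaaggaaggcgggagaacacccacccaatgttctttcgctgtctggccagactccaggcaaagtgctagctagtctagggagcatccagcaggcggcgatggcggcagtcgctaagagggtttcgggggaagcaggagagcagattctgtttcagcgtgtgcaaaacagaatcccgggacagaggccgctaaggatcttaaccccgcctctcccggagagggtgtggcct
Mgst1: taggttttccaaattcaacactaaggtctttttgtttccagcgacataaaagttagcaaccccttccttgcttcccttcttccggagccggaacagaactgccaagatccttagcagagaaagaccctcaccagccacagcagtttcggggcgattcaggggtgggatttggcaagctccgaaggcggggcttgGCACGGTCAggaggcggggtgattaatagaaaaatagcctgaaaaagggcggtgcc
Gpx3: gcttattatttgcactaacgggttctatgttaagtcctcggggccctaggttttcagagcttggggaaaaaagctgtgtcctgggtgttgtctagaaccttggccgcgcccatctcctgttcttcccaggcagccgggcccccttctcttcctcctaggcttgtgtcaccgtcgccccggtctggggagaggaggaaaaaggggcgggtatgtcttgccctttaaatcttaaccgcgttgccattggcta
In these 3 windows the core was found in Mgst1, on the opposite strand, where it reads GCACGGTCA. Both strands were searched. The 33 members with a listed promoter had 45 windows, since some have several starts. The core stood in 6 of these 45 (13.3%), those of Gclm, Gsta3, Gstm5, Mgst1, Sod1 and Txnrd1, and in 10.2% of all 32851 promoter windows. The AP-1 motif TGANTCA was in 3 of the 45 (6.67%), those of Gstm5, Gstp1 and Mgst2, and in 6.75% of all windows. The TATA box TATAAA was in 7 of the 45 (15.6%), among them another listed start of Gstm1, and in 12.4% of all windows. The first of these motifs can overlap the second where TGAC is followed by TCA. Of the 6 members with the core, Mgst1 passed in at least 1 comparison, and a match is a description of the letters, not evidence of binding.

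Genes around the enzymes were described from 6 further lists, which held 60 measured of 83 listed genes. With the transgene in NOD.scid, 4 of the 60 rose and 9 fell. With the transgene in NOD, 2 rose and 5 fell. In NOD.scid against NOD these numbers were 2 and 3, and in BDC2.5/NOD.scid against BDC2.5/NOD they were 4 and 5. The shares were 21.7%, 11.7%, 8.33% and 15%, where 6.97%, 8.71%, 2.73% and 9.25% of all genes were called. For the interaction, 5 were positive and 2 negative (11.7%, against 5.38% of all genes). No test of that excess was made. The lists were chosen with earlier results of these data known, so the excess is not read as a result.

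Among 9 measured regulators of the antioxidant response, Nfe2l2, which encodes NRF2 and is named here after its values were seen, was lower with the transgene in both backgrounds. Its mean was 4.09 in BDC2.5/NOD.scid and 4.49 in NOD.scid (log2 fold change -0.40, SE 0.104, limma adjusted p = 0.0381). It was 4.36 in BDC2.5/NOD and 4.81 in NOD (-0.45, limma adjusted p = 0.0188). Islet markers (6 and 6 of 10) and fibroblast markers (5 and 7 of 8) were lower in the same comparisons, and their part in the Nfe2l2 result was not tested. Bach1, a repressor that competes for the same element, was lower in BDC2.5/NOD relative to NOD (-0.63, limma adjusted p = 0.0114), and the related factor Nfe2l1 was higher (0.58, limma adjusted p = 0.00374). Cul3, the ubiquitin ligase scaffold that works with Keap1, was higher in BDC2.5/NOD.scid relative to NOD.scid (0.45, limma adjusted p = 0.0311) and lower in NOD.scid relative to NOD (-0.58, limma adjusted p = 0.0184). Of the 13 measured genes of glutathione supply and turnover, Slc3a2, the heavy chain of amino acid exchangers including the cystine carrier, was higher in BDC2.5/NOD relative to NOD (0.62, limma adjusted p = 0.000875) and lower in BDC2.5/NOD.scid against BDC2.5/NOD (-0.71, limma adjusted p = 0.000242). Slc1a5, a glutamine carrier, was lower in the second of these comparisons (-0.46, limma adjusted p = 0.0325).

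Of the 7 measured genes listed around NADPH supply, 3 fell in BDC2.5/NOD.scid against NOD.scid by similar amounts. The median of the 7 was 0.05, so the list did not fall as a whole. A place on the list does not mean that a gene itself makes NADPH. The log2 fold changes were -0.47 for Tkt, a transketolase (SE 0.0895, limma adjusted p = 0.00729), -0.47 for Taldo1, transaldolase (SE 0.103, limma adjusted p = 0.0165), and -0.47 for Idh2, the mitochondrial isocitrate dehydrogenase (SE 0.0904, limma adjusted p = 0.00714). Idh2 was also lower in BDC2.5/NOD relative to NOD (-0.39, limma adjusted p = 0.0205).

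The largest differences near the enzymes belonged to partners rather than members. Txnip, which binds and inhibits thioredoxin, averaged 8.30 in BDC2.5/NOD.scid, 5.59 in BDC2.5/NOD, 6.73 in NOD.scid and 7.07 in NOD. Its transgene effect was thus 1.57 in NOD.scid (limma adjusted p = 4.52e-07) and -1.49 in NOD (limma adjusted p = 1.74e-06), with an interaction of 3.06 (limma adjusted p = 3.45e-07). Txn1, its partner, had transgene effects of 0.08 in NOD.scid and -0.31 in NOD, neither past the threshold. Txnl1, a thioredoxin-like protein bound to the proteasome, was lower in BDC2.5/NOD.scid relative to BDC2.5/NOD (-0.77, limma adjusted p = 0.0047). Of 10 measured genes of heme and iron handling, Cp, the ferroxidase ceruloplasmin, and Hp, which binds free hemoglobin, rose in BDC2.5/NOD.scid against NOD.scid by 1.39 and 0.93 (limma adjusted p = 1.66e-06 and 0.000304). Alad, an enzyme of heme synthesis, was lower there (-0.83, limma adjusted p = 0.00692) and higher in NOD.scid relative to NOD (0.69, limma adjusted p = 0.0432). Its NOD.scid mean was the highest of the 4, as for the red cell markers.

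Of 11 measured genes of quinone, aldehyde and epoxide detoxification, Mgst3 and Aldh1a1 differed by more than 1 on the log2 scale. Mgst3, a microsomal transferase that the choice of members left out, averaged 4.25 in BDC2.5/NOD.scid, 4.67 in BDC2.5/NOD, 5.82 in NOD.scid and 4.66 in NOD. NOD.scid stood above the other groups, as for Gpx4 and Gstt2. Aldh1a1, a retinaldehyde dehydrogenase, was lower in BDC2.5/NOD relative to NOD (-1.17, limma adjusted p = 0.000297), with means of 5.28 and 6.45. Akr7a5, an aldo-keto reductase, was lower in BDC2.5/NOD.scid relative to NOD.scid, at -0.35 (limma adjusted p = 0.0272).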

How the data were processed

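RNA from whole pancreas was measured in 8 samples, 2 in each of 4 groups, with groups taken from the sample titles. Per the labels' protocols, tissue was extracted with guanidine isothiocyanate and the array maker's procedures were applied to about 10 ug of total RNA. The authors deposited 1 log2 value per probe set and array, with the base inferred because the values ran from 2.021 to 13.78. How they normalized the arrays, corrected background and combined probes is, in the sources used here, not given. Array medians lay between 4.236 and 4.2955, so the values were used unscaled.

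Of 12488 probe sets, 66 controls were set aside, leaving 12422. By GEO's platform annotation 10833 of these had a single symbol, 396 several and 1193 none, and 10817 symbols matched the GRCm38.p6 annotation, with 0 changed. A model of 4 group means over all 8 arrays was fitted in limma 3.58.1 (R 4.3.3) with a variance trend, 4 residual and 8.07 prior degrees of freedom. Tests were two-sided and adjusted by the Benjamini-Hochberg method over all 12422 probe sets, at a threshold of 0.05. The test was tried on simulated data. The members and the gene lists were chosen with earlier results of these data known. Members given in full were those past the threshold in any comparison, with Gclc, Gsr, Gpx1, Cat, Sod1, Sod2, Hmox1 and Nqo1, and up to 3 genes of each pathway list were named by smallest p. Alternatives covered scaling, removal of dim probe sets, no variance trend, fits of only the arrays compared, a replicate block, the actin control, array weights, the mean over probe sets and each array left out. Tables were made with pandas 2.3.3 and figures with matplotlib 3.10.9. Precision is limited by having 2 arrays per group.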

Additional observations from a re-analysis of the deposited data

Results flagged for a closer look

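For 3 members the transgene effect differed between NOD.scid and NOD by a test of the difference itself, with limma adjusted p under the threshold. The transgene effect in NOD.scid minus that in NOD was 0.7225 for Mgst1 and 0.644 for Gstm1, both of which were low on the 2 BDC2.5/NOD arrays, and -0.737 for Mgst2, which was high on those arrays and lowest in NOD. The Gstm1 and Mgst2 differences were not called on a second probe set of each gene (0.17 and -0.19). No group was large enough for a check of single arrays against the rest.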

How the results depend on the processing

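Of the 19 calls on members, 0 reversed under any alternative, and 5 kept their side of the threshold under every alternative (Gstt2 and Gpx4 in BDC2.5/NOD.scid against NOD.scid, Mgst2 and Mgst1 in BDC2.5/NOD against NOD, and Gstm1 in BDC2.5/NOD.scid against BDC2.5/NOD); Mgst2 is not in the filter on dim probe sets. With only the arrays compared in the fit, members called numbered 2 with the transgene in NOD.scid (main 4) and 0 in NOD.scid against NOD (main 2), and genes called numbered 331 (main 575), 1093 with the transgene in NOD (main 719) and 102 in NOD.scid against NOD (main 225). With a term for the actin control, members called were 7, 9, 6, 8 and 6 in the 5 comparisons as ordered in the report (main 4, 5, 2, 5 and 3), and genes called were 965, 1112, 567 and, for the interaction, 789 (main 575, 719, 225 and 444). With the replicate block, members called were 3 with the transgene in NOD (main 5), 1 in NOD.scid against NOD (main 2), where genes called were 144, and 3 in BDC2.5/NOD.scid against BDC2.5/NOD (main 5). Only 1 array of each group carries a number in its title, and deviations of same-numbered arrays correlated at -0.32 to 0.29. With 2 arrays per group these correlations cannot decide whether the numbers pair the samples. Array weights gave 1 member in NOD.scid against NOD and 1130 genes with the transgene in NOD, and no variance trend gave 1 member in NOD.scid against NOD. With each array left out, members called ranged over 2 to 4, 2 to 6, 0 to 2, 1 to 6 and 0 to 3 in the 5 comparisons, and genes called over 319 to 528, 204 to 820, 52 to 250, 249 to 850 and 147 to 377. The causes were not tested.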

Other observations

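Group means of the members had no common order. BDC2.5/NOD.scid held the lowest mean of 11 of the 39 members and of 26% of all genes, and BDC2.5/NOD of 14 members and 22.6% of all genes. NOD.scid held the lowest mean of 5 members and 19.8% of all genes, and NOD of 9 members and 31.5% of all genes. The median pooled SD within groups was 0.097 for the members and 0.102 for all genes.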
